A study of Homo sapiens with 28 samples.

Results

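The sites described here are cohesin sites without CTCF in GP5d, an established line of human colon adenocarcinoma cells. They were chosen by measured peak calls. A site is a RAD21 peak under control siRNA that overlapped, by at least 1 bp, an SMC3 peak under control siRNA and no CTCF peak under either siRNA. There were 3158 such sites, which are 8.72% of the 36204 control RAD21 peaks and 10.0% of the 31562 control RAD21 peaks that overlapped SMC3. Without the condition on CTCF under RAD21 siRNA there would have been 3691 sites, and 533 of these dropped out because they overlapped a siRAD21 CTCF peak. Other regions of the same RAD21 list serve for comparison. They are 28404 CTCF-cohesin sites, where RAD21 and SMC3 peaks overlapped a CTCF peak under at least 1 siRNA, and 2487 RAD21 peaks with neither SMC3 nor CTCF.

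Chromatin immunoprecipitation followed by sequencing (ChIP-seq) was carried out on cells harvested 72 h after transfection with 50 nM of siRNA oligos against RAD21 (siRAD21) or of a neutral siRNA without a target (control). The same 11 targets were profiled in both groups with 1 library each, so no difference between the siRNAs has a replicate check. No test was made between libraries, and every interval is a 95% interval over regions that covers counting error only. The libraries hold a mixed population of cells, in which fewer cells with a protein on a site and less protein per cell cannot be told apart.

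Cohesin is a ring built from SMC1A, SMC3, RAD21 and a STAG subunit that holds sister chromatids together and extrudes loops of chromatin. NIPBL loads the ring onto DNA and drives extrusion, and CTCF, a zinc finger protein, is the barrier at which extruding cohesin commonly halts, so that most stable cohesin positions in mammalian cells are CTCF sites. Cohesin away from CTCF is known from enhancers and promoters, where it lies with NIPBL, with transcription factors and with histone H3 monomethylated at lysine 4 (H3K4me1), a mark of enhancers. The factors profiled were HNF4A, a nuclear receptor of intestinal and liver epithelium, JUND, an AP-1 subunit, KLF5, a factor of proliferating intestinal epithelium, MYC, a growth regulator with widespread binding at active promoters, REST, a repressor of neuronal genes, and RFX2, an activator of cilium genes.

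Depth and labels limit the comparison of the siRNAs. After filtering, siRAD21 libraries held 1747770 to 15263937 tags and control libraries 3629966 to 19926326, and the siRAD21 library was the smaller for 9 of the 11 targets. The ratio of siRAD21 to control tags was 0.615 for RAD21, 0.531 for SMC3, 0.346 for CTCF, 0.352 for NIPBL, 0.528 for H3K4me1, 0.558 for HNF4A, 2.02 for JUND, 0.355 for KLF5, 1.02 for MYC, 0.619 for REST and 0.481 for RFX2. A target with no called peak at a site, CTCF included, is thus one not detected at the depth of its library. The antibody number given for H3K4me1 is one known for histone H3 in general, and that for MYC is one known for a mouse antibody while the titles say rabbit. An siRNA tag carries rising numbers after the letters RAD for the siRAD21 libraries, against their titles and descriptions, which were followed here.

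The values that chose the sites are given as a description. The median significance of their control RAD21 peaks, which the authors give as −10 × log10 p with 50 as the lowest value called, was 80.3 (quartiles 62.7 and 111, highest 1522), against 297 at the CTCF-cohesin sites. The median fold enrichment over background was 6.98 at the sites and 18.0 at the CTCF-cohesin sites, and the median width of the RAD21 peak was 1452 and 1553 bp. The strongest overlapping SMC3 peak had a median −10 × log10 p of 89.8 at the sites and 293 at the CTCF-cohesin sites. The sites thus lay mostly in the weaker part of the RAD21 list, and comparisons with CTCF-cohesin sites below are averaged over 5 strata of the whole RAD21 list by p ("at like strength").

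Few sites lay close to the limits of the rule. The overlap with SMC3 was 1274 bp in the median and 34 bp at the least. The nearest CTCF peak under either siRNA lay 15396 bp away in the median (quartiles 5039 and 38809), with 11 bp as the smallest gap. A CTCF peak lay within 50 bp of 8 sites, within 1000 bp of 200 (6.33%) and within 10000 bp of 1239 (39.2%). On the other side of the limit, 5 CTCF-cohesin sites overlapped CTCF by at most 50 bp, and the smallest such overlap was 9 bp.

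Cohesin itself was found again at few of the sites under RAD21 siRNA. A siRAD21 RAD21 peak overlapped 227 of the 3158 sites (7.19%, 95% interval 6.31 to 8.15), against 57.4% of the CTCF-cohesin sites and 46.6% of all control RAD21 peaks. SMC3, the other ring subunit profiled, had a siRAD21 peak at 106 sites (3.36%, 2.76 to 4.05), against 37.5% of the CTCF-cohesin sites and 30.0% of all control RAD21 peaks. At like strength the share found again was lower at the sites than at CTCF-cohesin sites by a difference of −14.8 percentage points for RAD21 (−16.1 to −13.6) and −7.05 for SMC3 (−7.90 to −6.19). RAD21 peaks with neither SMC3 nor CTCF were found again at 3.10%, so that the sites exceeded them at like strength by 2.70 percentage points (1.55 to 3.85). The difference of −14.8 from CTCF-cohesin sites was −27.5 with equal numbers of strongest peaks, −46.1 with strata of peak width and −50.2 without strata. It was smaller in other settings, at −10.8 with −10 × log10 p of at least 100 and −10.9 at an FDR under 5%. With CTCF of the control library alone it was −11.0.

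The gap to CTCF-cohesin sites was seen in each class of peak strength with more than 3 sites. For control RAD21 peaks with −10 × log10 p of 50 to 100, RAD21 was found again at 5.40% of 2166 sites and 15.9% of CTCF-cohesin sites. From 100 to 200 it was found again at 9.27% of 852 sites and 29.9% of CTCF-cohesin sites, and from 200 to 400 at 21.2% of 137 sites and 56.7% of CTCF-cohesin sites. Of the 3 sites at 400 and above 2 kept a RAD21 peak, against 88.7% of CTCF-cohesin sites. In both sets the share grew with the strength of the control peak, and it was lower at the sites without CTCF in the 3 well-filled classes.

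**Figure D1:**
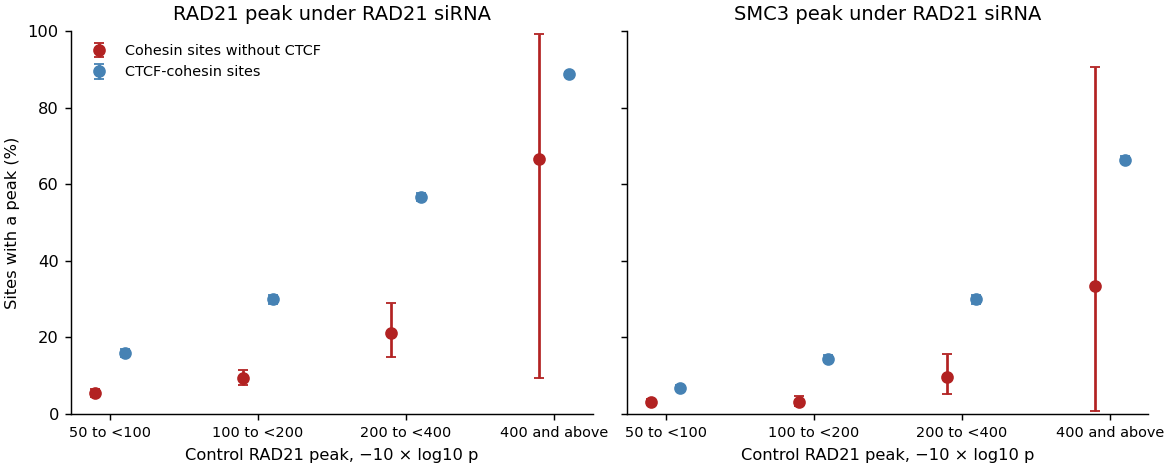
Percent of regions (y axis) with a RAD21 peak (left panel) or SMC3 peak (right panel) under RAD21 siRNA, by the −10 × log10 p class of the control RAD21 peak (x axis), for cohesin sites without CTCF in red and CTCF-cohesin sites in blue. Bars are 95% Clopper-Pearson intervals and cover counting error only. In the class from 100 to 200, RAD21 was found at 9.27% of the red and 29.9% of the blue regions.

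The share depended on the rule for CTCF and on the peak threshold. With the condition on siRAD21 CTCF left out, a choice made after the data were seen, RAD21 was found again at 12.6% of 3691 sites and SMC3 at 5.82%, because 237 of the 533 sites that then come in (44.5%) had a siRAD21 RAD21 peak. RAD21 was found again at 2.05% when peaks needed an FDR under 5%, at 2.95% with −10 × log10 p of at least 100, and at 19.4% of 227 sites, another set than the 227 above, that were left when both lists of each target were cut to equal numbers of their strongest peaks, and SMC3 moved likewise to 0.154%, 0.637% and 7.93%.

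Most of the sites lay in H3K4me1 chromatin under both siRNAs. H3K4me1 peaks overlapped 2158 sites (68.3%, 66.7 to 70.0) under RAD21 siRNA and 2273 (72.0%, 70.4 to 73.5) under control siRNA. The background over all control RAD21 peaks was 29.4% and 31.2% under the same siRNAs, and CTCF-cohesin sites had 23.3% and 24.8%. At like strength the sites exceeded CTCF-cohesin sites by 45.1 percentage points under RAD21 siRNA (43.3 to 47.0) and 48.7 under control siRNA (46.9 to 50.5). RAD21 peaks with neither SMC3 nor CTCF carried the mark at 53.6% under RAD21 siRNA and 60.2% under control siRNA, so that the excess of the sites over them at like strength was 13.0 (10.3 to 15.7) and 10.0 points (7.40 to 12.7). The regions of the mark were broad. H3K4me1 regions at the sites had a median width of 4234 bp under RAD21 siRNA and 4192 bp under control siRNA, against 2591 and 2384 bp over all H3K4me1 regions, and the summit of the mark lay a median of 548 bp from the RAD21 summit. When summits had to lie within 250 bp, control H3K4me1 was found at 15.7% of sites, and the control difference from CTCF-cohesin sites was 10.8 points (9.41 to 12.2). It was 32.1 points with strata of fold enrichment.

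NIPBL, the cohesin loader, had the largest gap between the siRNAs in number of sites among the 8 targets that did not enter the choice. Its peaks overlapped 300 sites (9.50%, 8.50 to 10.6) under RAD21 siRNA and 1523 (48.2%, 46.5 to 50.0) under control siRNA, against a background of 3.46% and 12.8% of all control RAD21 peaks. CTCF-cohesin sites had 2.61% and 8.30%. At like strength the sites exceeded CTCF-cohesin sites by 6.56 percentage points under RAD21 siRNA (5.45 to 7.67) and by 42.8 under control siRNA (41.0 to 44.6). RAD21 peaks with neither SMC3 nor CTCF had 4.74% and 26.0%, and the sites exceeded these by 3.99 points (2.60 to 5.38) and 17.6 points, both with intervals above 0. With −10 × log10 p of at least 100 in every list the control share at the sites was 26.9%, and the control difference from CTCF-cohesin sites 25.2 points. No control NIPBL or JUND peak had an FDR under 5%, so where that limit is used below these control lists were left whole. The siRAD21 NIPBL library held 0.352 of the control library's tags, and its list 6068 peaks against 11694, a ratio of 0.519. The ratio of the 2 siRNAs at the sites was 0.197, but the sites were chosen by control peaks and the whole list was not. Over all control RAD21 peaks, NIPBL was found at 1253 under RAD21 siRNA and 4626 under control siRNA. The part of depth in the gap between the siRNAs was not tested.

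Each transcription factor other than JUND was called at fewer sites under RAD21 siRNA than under control siRNA. Under RAD21 siRNA MYC was found at 312 sites (9.88%, background 4.28%), HNF4A at 430 (13.6%, background 4.24%), KLF5 at 75 (2.37%, background 0.914%), REST at 41 (1.30%, background 1.08%) and RFX2 at 13 (0.412%, background 0.420%). JUND was found at 641 sites (20.3%, background 7.45%), in a library with 2.02 times the tags of its control. At least 1 factor lay at 980 sites (31.0%, 29.4 to 32.7), and at like strength this exceeded CTCF-cohesin sites by 20.8 percentage points (19.1 to 22.6). RFX2 differed from CTCF-cohesin sites by −0.0780 percentage points (−0.354 to 0.198) and REST by 0.296 (−0.160 to 0.751), both intervals covering 0.

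Under control siRNA MYC had peaks at 1347 sites (42.7%, background 12.3%), HNF4A at 1103 (34.9%, background 8.03%), KLF5 at 730 (23.1%, background 6.34%) and JUND at 617 (19.5%, background 4.24%). REST was found at 55 sites (1.74%, background 1.08%) and RFX2 at 44 (1.39%, background 0.870%). The first 4 were thus frequent and the last pair rare. At like strength the control shares exceeded those of CTCF-cohesin sites by 34.7 percentage points for MYC (32.8 to 36.5), 32.0 for HNF4A (30.3 to 33.7), 19.0 for KLF5 (17.5 to 20.6) and 18.0 for JUND (16.5 to 19.4). The same differences were 0.932 for REST (0.429 to 1.43) and 0.533 for RFX2 (0.0636 to 1.00). Against RAD21 peaks with neither SMC3 nor CTCF the control differences were smaller for the frequent factors, at 17.4 for MYC (14.9 to 19.9), 8.08 for HNF4A (5.64 to 10.5), 9.23 for KLF5 (7.19 to 11.3) and 6.73 for JUND (4.82 to 8.63). At least 1 of the 6 factors lay at 1907 sites (60.4%), against 42.4% of RAD21 peaks with neither SMC3 nor CTCF, which at like strength is a difference of 14.9 points (12.1 to 17.6). The share at the sites was 34.3% with −10 × log10 p of at least 100 in every list, and the difference from CTCF-cohesin sites was then 27.4 points.

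**Figure D2:**
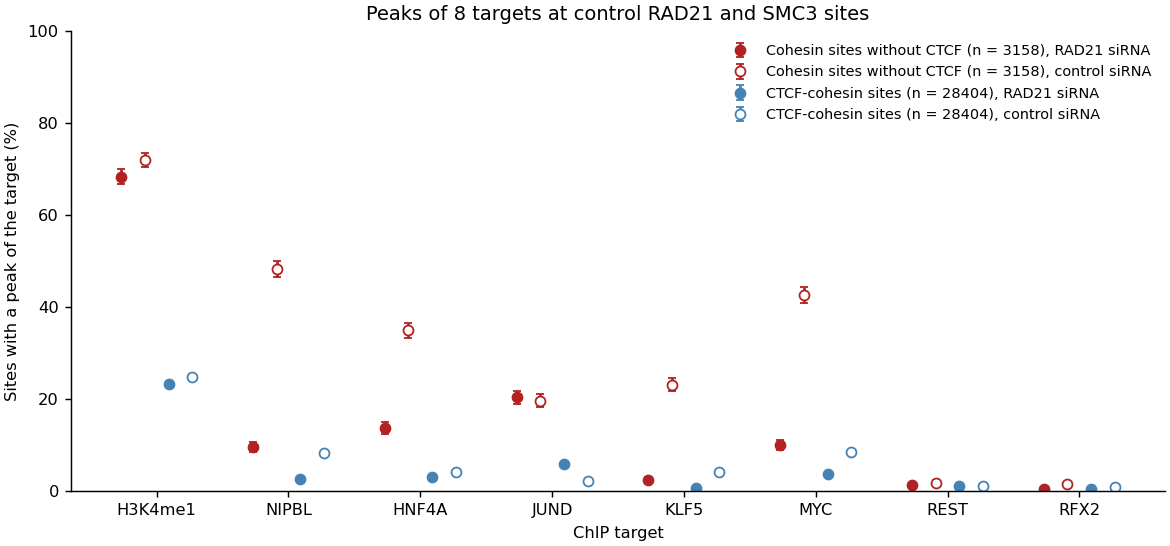
Percent of regions (y axis) with a peak of each of the 8 targets that did not enter the choice of sites (x axis), under RAD21 siRNA (filled) and control siRNA (open), at cohesin sites without CTCF (red) and CTCF-cohesin sites (blue). Bars are 95% Clopper-Pearson intervals for counting error. H3K4me1 stands at 68.3% and 72.0% at the red sites, while NIPBL stands at 9.50% under RAD21 siRNA and 48.2% under control siRNA.

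The targets lay together at the sites. Of the 8 targets that the choice did not use, a site carried 1.26 on average under RAD21 siRNA and 2.44 under control siRNA, whereas a CTCF-cohesin site carried 0.402 and 0.536. Peaks of 4 or more targets were found at 212 sites (6.71%) under RAD21 siRNA and at 1045 (33.1%) under control siRNA, against 1.70% and 2.99% of CTCF-cohesin sites. No site carried all 8 under either siRNA, and 7 was the highest number, at 2 sites under RAD21 siRNA and 5 under control siRNA. Under RAD21 siRNA H3K4me1 alone was the commonest state (37.3%), followed by no target (30.0%) and by H3K4me1 with JUND (7.09%). Under control siRNA the commonest was no target (24.6%), followed by H3K4me1 alone (10.4%) and by H3K4me1 with NIPBL, HNF4A and MYC (6.27%).

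**Figure D3:**
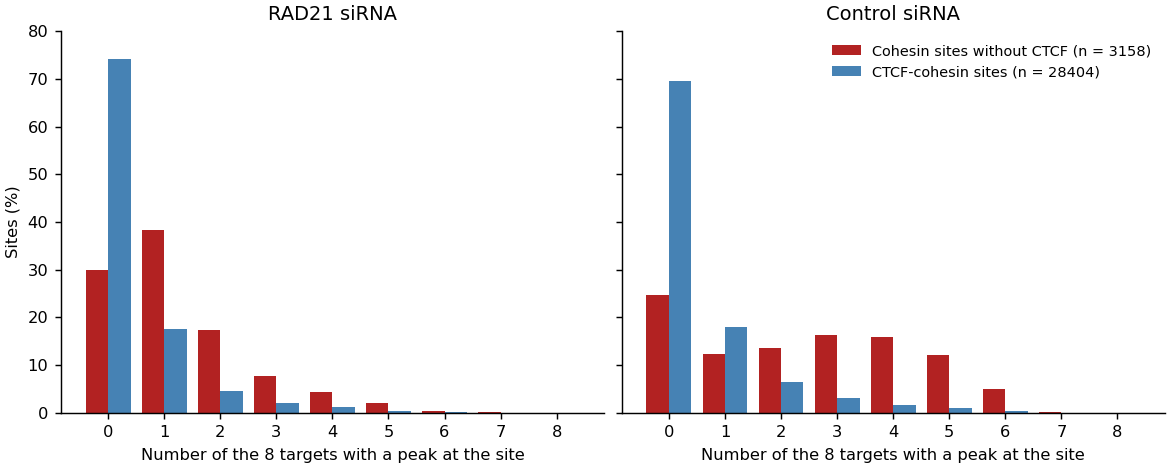
Percent of regions (y axis) by the number of the 8 targets with a peak there (x axis), under RAD21 siRNA (left) and control siRNA (right), for cohesin sites without CTCF (red) and CTCF-cohesin sites (blue). In red, 6.71% of sites had 4 or more targets under RAD21 siRNA and 33.1% under control siRNA.

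H3K4me1 divided the sites. The 2273 sites with a control H3K4me1 peak had control NIPBL at 64.6% and at least 1 control factor at 79.7%, whereas the 885 sites without it had 6.21% and 10.7%. At like strength these are differences of 57.5 percentage points for NIPBL (54.9 to 60.0) and 68.5 for the factors (65.8 to 71.1). Of the sites with each target under control siRNA, H3K4me1 was found at 98.5% for HNF4A, 96.6% for JUND, 96.4% for NIPBL, 96.4% for MYC, 94.8% for KLF5, 86.4% for RFX2 and 74.5% for REST. REST thus lay outside H3K4me1 at a larger share of its sites than any of the other targets, though on 55 sites in all. The shares in this paragraph were computed at the sites alone. Whether they differ from those at other RAD21 peaks was not tested.

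NIPBL and the factors were likewise found together. At the 1523 sites with control NIPBL at least 1 factor was found at 90.5%, against 32.4% of the 1635 sites without it, which at like strength is a difference of 57.9 percentage points (55.1 to 60.6). NIPBL sites held MYC at 70.0%, HNF4A at 57.6%, KLF5 at 38.2% and JUND at 33.8%. MYC was the factor most often shared, at 76.8% of JUND sites, 75.8% of KLF5 sites and 66.2% of HNF4A sites under control siRNA. No matching shares were computed at other RAD21 peaks, so these are not shown to be particular to the sites. The share of sites with RAD21 found again was compared over the same divisions. The difference at like strength was 0.775 percentage points with against without control H3K4me1 (−1.14 to 2.69), 0.928 for NIPBL (−0.916 to 2.77) and 2.45 for at least 1 factor (0.675 to 4.23), the last being the one whose interval lies above 0.

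A group of 777 sites (24.6%) had none of the 8 targets under control siRNA, and their RAD21 peaks had another shape. They were narrow and steep, with a median width of 1169 bp and a median fold enrichment of 9.40 (quartiles 7.73 and 11.1), while the 1045 sites with 4 or more targets had 1783 bp and 6.30 (5.22 and 7.83). The RAD21 and SMC3 summits lay a median of 46.0 bp apart at the bare sites and 99.0 bp at those with 4 or more targets, and the value at CTCF-cohesin sites was 26.0 bp. The nearest CTCF peak lay a median of 18709 bp from the bare sites and 15315 bp from those with 4 or more targets. Median −10 × log10 p was 76.2 at the bare sites and 90.6 at those with 4 or more targets, so the steeper peaks were not the more significant ones. RAD21 was found again at 5.53% of the bare sites (4.03 to 7.38) and at 8.42% of those with 4 or more targets (6.81 to 10.3), and these intervals overlap. Of the bare sites 95.1% also had none of the 8 targets under RAD21 siRNA, a share not computed at other RAD21 peaks. No sequence of the build used in the peak lists was at hand, so a CTCF motif was not looked for at any site.

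The summits of factors lay nearer to the RAD21 summit at these sites than at CTCF-cohesin sites. Under control siRNA the median distance of the summits was 128 bp for HNF4A, 118 bp for JUND, 101 bp for KLF5 and 111 bp for MYC, against 316, 233, 223 and 182 bp at CTCF-cohesin sites. The nearest factor summit lay within 250 bp of the RAD21 summit at 83.4% of the sites with a factor and at 59.9% of such CTCF-cohesin sites. NIPBL lay at 116 bp and at 127 bp, a much smaller gap between the 2 sets, and H3K4me1 at 548 and 551 bp. For SMC3 the order was turned round, with 81.0 bp at the sites and 26.0 bp at CTCF-cohesin sites. The SMC3 and RAD21 peaks here chose the sites, and their distance is given as a description.

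**Figure D4:**
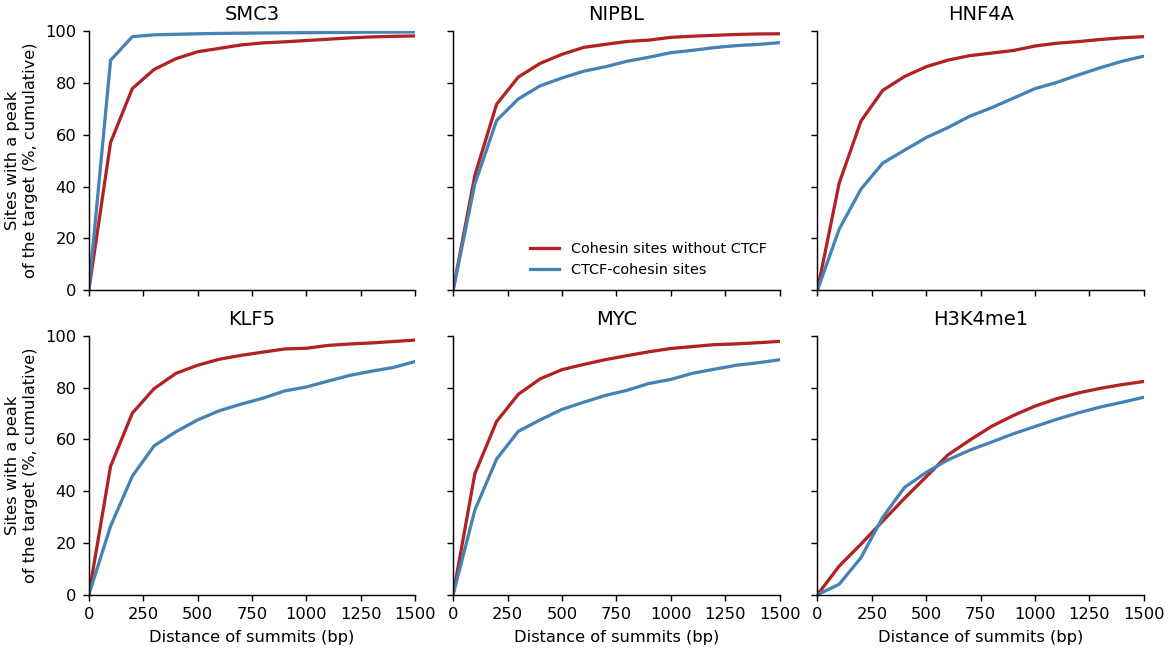
Cumulative percent of regions with a control peak of the target (y axis) by the distance between its summit and the RAD21 summit in bp (x axis, up to 1500 bp), for cohesin sites without CTCF (red) and CTCF-cohesin sites (blue). The red curves of HNF4A, KLF5 and MYC run above the blue ones, with medians of 128, 101 and 111 bp in red and 316, 223 and 182 bp in blue, and the order is turned round for SMC3.

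Where RAD21 was not detected under its siRNA, H3K4me1 was what most often stayed. Among the 2931 sites without a siRAD21 RAD21 peak, 2102 had carried a control H3K4me1 peak, and 91.2% of these had one again (89.9 to 92.4). Over all 2273 marked sites the share was 91.6%, against a background of 80.3% of the control RAD21 peaks with H3K4me1. Under summits within 250 bp it was 50.2% of 432 sites. A control factor peak was present at 1747 of the 2931 sites, and at 620 of them (35.5%, 33.2 to 37.8) at least 1 of those factors was found again, a share that was 20% at an FDR under 5%. All of a site's control factors were found again at 190 (10.9%). Among the 1665 sites that had both the mark and a factor, H3K4me1 was left as the sole target of the 8 at 794 (47.7%). For these shares with a factor no value over all control RAD21 peaks was computed. Taken singly at the 2931 sites, HNF4A was found again at 31.8%, JUND at 37.2% and KLF5 at 8.26%. The background over all control RAD21 peaks with the target was near, at 34.2%, 39.6% and 9.80%. MYC was found again at 16.3% (14.2 to 18.5), below its background of 23.2%. That background also counts peaks where RAD21 was found again.

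The state of the 2931 sites under RAD21 siRNA was as follows. H3K4me1 without any of the other 7 targets was found at 1128 (38.5%), H3K4me1 with at least 1 factor at 803 (27.4%), and a factor without the mark at 43 (1.47%). None of the 8 targets was found at 907 (30.9%). NIPBL was found at 232 (7.92%), of which 224 carried H3K4me1, and SMC3 at 69 (2.35%). A factor with no control peak of its own there was found at 375 (12.8%), and JUND was such a factor at 315 of these. Among all control RAD21 peaks, with RAD21 found again or not, at least 1 of the 8 targets had a siRAD21 peak at 31.9%. NIPBL had one at 3.46% and SMC3 at 30.0%. Among CTCF-cohesin sites without a siRAD21 RAD21 peak, SMC3 had one at 7.32%. The other states were not counted over all control RAD21 peaks.

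The targets differed in how often they were found again. Of the sites with a control peak, a siRAD21 peak of the same target was found at 16.5% for NIPBL (14.7 to 18.4), 33.0% for HNF4A (30.2 to 35.9), 41.3% for JUND (37.4 to 45.3), 19.7% for MYC (17.6 to 21.9) and 8.90% for KLF5 (6.94 to 11.2). The background over all control RAD21 peaks with the target was 14.2% for NIPBL, 34.2% for HNF4A, 39.6% for JUND, 23.2% for MYC and 9.80% for KLF5. The shares of HNF4A, JUND and KLF5 lay near it. The MYC interval lay below its background, and the NIPBL interval just above. REST was found again at 27 of 55 sites (49.1%, 35.4 to 62.9, background 57.8%) and RFX2 at 3 of 44 (6.82%, 1.43 to 18.7, background 17.5%). JUND was the target with more new than lost sites, with 386 sites where it had a siRAD21 peak alone, 362 with a control peak alone and 255 with both. Its siRAD21 list held 12319 peaks and its control list 4678. NIPBL had 49 new and 1272 lost sites, KLF5 10 and 665, MYC 47 and 1082, and HNF4A 66 and 739. The ratio of siRAD21 to control was 0.103 at the sites and 0.229 over the whole list for KLF5. It was 0.232 and 0.535 for MYC, and 0.390 and 0.637 for HNF4A. The sites were chosen by control peaks and the whole lists were not, so these ratios are not like for like. Over all control RAD21 peaks, KLF5 was found at 331 under RAD21 siRNA and 2297 under control siRNA. MYC was found at 1550 and 4453, and HNF4A at 1536 and 2907. New peaks at control RAD21 peaks without a control peak numbered 598 of 31578 for NIPBL (49 of 1635 at the sites). For KLF5 they numbered 106 of 33907 (10 of 2428) and for MYC 515 of 31751 (47 of 1811). For HNF4A they were 542 of 33297 (66 of 2055) and for JUND 2090 of 34668 (386 of 2541).

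Target peaks at the sites were then set against peaks of the same target and like strength that touched no RAD21 peak. MYC peaks were found again at 20.1% of 1361 at the sites and 31.5% of 9124 away from RAD21, with −14.5 percentage points as the difference at like strength (−16.7 to −12.2). NIPBL peaks were found again at 15.8% of 1571 and 19.9% of 6957, a difference of −11.5 (−13.6 to −9.44). For HNF4A the share was 33.0% in both, but the peaks at the sites were stronger, with a median −10 × log10 p of 116 against 91.2, and the difference at like strength was −7.33 (−9.75 to −4.91). It was 0.0210 (−2.92 to 2.96) without strata. RFX2 had a difference of −9.70 (−15.5 to −3.89) from 44 peaks at the sites, and −2.75 (−11.0 to 5.49) with CTCF of the control library alone. REST had −7.82 (−15.0 to −0.608) from 55 peaks, and its interval covered 0 at an FDR under 5%, with −10 × log10 p of at least 100, with strata of fold enrichment and with CTCF of the control library alone.

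KLF5 peaks had a difference of −4.37 percentage points (−6.48 to −2.25), whose interval covered 0 at an FDR under 5% (−1.50, −3.89 to 0.895), with −10 × log10 p of at least 100, with equal lists and without strata. H3K4me1 was the one target with an interval above 0, at 1.75 (0.618 to 2.89), but the interval covered 0 at an FDR under 5% (0.194, −1.06 to 1.45), without the need for SMC3 (0.536, −0.452 to 1.52), with −10 × log10 p of at least 100 (−0.157, −2.53 to 2.22) and with equal lists (−0.165, −3.29 to 2.96). It was 8.84 (4.52 to 13.2) with summits within 250 bp, 8.28 (7.07 to 9.48) with strata of fold enrichment and 18.8 without strata. JUND had 2.65 (−1.48 to 6.78), an interval that covers 0, and 7.91 (3.70 to 12.1) with strata of fold enrichment. The MYC and NIPBL differences kept their sign and an interval below 0 in every other setting run, where for NIPBL the FDR limit applied to the siRAD21 list alone. Against target peaks at CTCF-cohesin sites, MYC had −7.42 (−10.1 to −4.79), HNF4A −10.1 (−13.4 to −6.78) and NIPBL 0.114 (−2.16 to 2.38). The last interval covers 0.

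**Figure D5:**
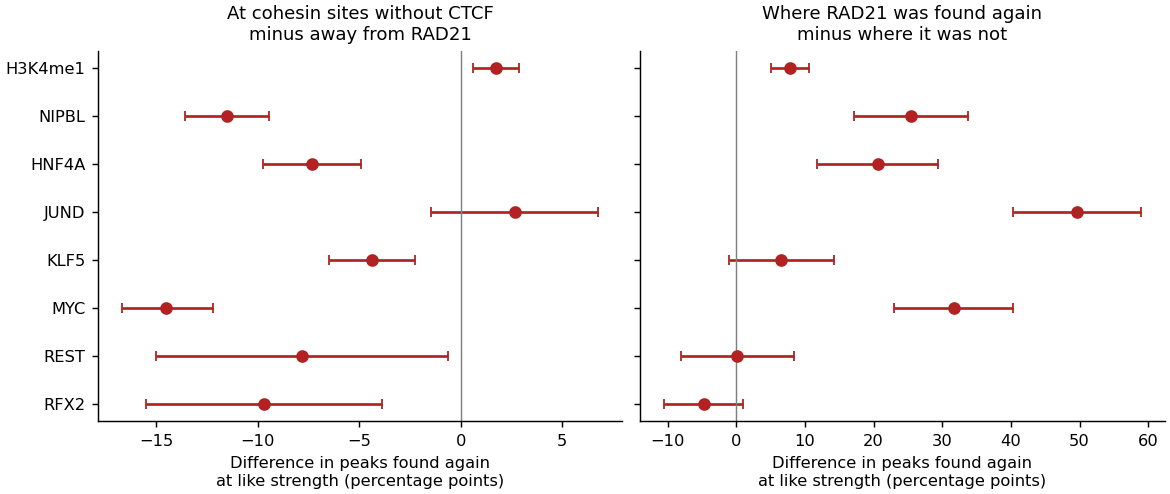
Difference in the percent of control peaks of each target (y axis) found again under RAD21 siRNA, in percentage points at like peak strength (x axis), with 95% intervals for counting error. Left, peaks at cohesin sites without CTCF minus peaks away from RAD21, where MYC stands at −14.5 and NIPBL at −11.5. Right, peaks at sites where RAD21 was found again minus peaks at sites where it was not, where JUND stands at 49.6 and MYC at 31.7.

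Within the sites, several targets were found again more often where RAD21 was. JUND peaks were found again at 86.5% of the 52 at sites with a siRAD21 RAD21 peak and 37.1% of the 569 at sites without it, with 49.6 percentage points as the difference at like strength (40.3 to 58.9). MYC peaks had 53.0% and 16.5%, a difference of 31.7 (23.0 to 40.3), NIPBL peaks 40.3% and 13.7%, a difference of 25.5 (17.2 to 33.8), and HNF4A peaks 49.4% and 31.8%, a difference of 20.6 (11.8 to 29.4). H3K4me1 had 96.7% and 91.1%, a difference of 7.85 (5.08 to 10.6). KLF5 had 14.3% and 8.07%, with an interval that covers 0 (6.56, −1.05 to 14.2), and so had REST and RFX2 on 6 and 5 peaks at sites with RAD21. All of these values share the same siRAD21 RAD21 library. The RAD21 list and all target lists but RFX2 also share the rabbit IgG of their siRNA as background. Strength was matched on the target's own control peaks, not on RAD21.

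Single regions show the range (hg18 coordinates, values −10 × log10 p of the authors' peaks). These values depend on the depth of each library and of its IgG, so a lower value under RAD21 siRNA is not by itself less binding. The strongest site with RAD21 found again, chr3:178556389-178561785, had RAD21 at 248 under RAD21 siRNA and 1522 under control siRNA, and SMC3 at 203 and 1704. NIPBL there had 71.2 under RAD21 siRNA and 792 under control siRNA, and H3K4me1 had 1279 and 2188. HNF4A (65.6 and 105), JUND (80.3 and 160) and MYC (86.7 and 188) were also found under both, and KLF5 under control siRNA (398). All of these targets but KLF5 were thus found under both siRNAs, each at the lower −10 × log10 p under RAD21 siRNA. Fold enrichment did not follow throughout. It was higher under RAD21 siRNA for H3K4me1 (15.4 against 10.8), HNF4A (8.63 against 6.36) and MYC (8.72 against 7.57). For RAD21, SMC3, NIPBL and JUND it was lower.

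The strongest sites without RAD21 under its siRNA differed from each other. At chr1:233175540-233182144 RAD21 was at 401 under control siRNA, with NIPBL (255), HNF4A (196) and MYC (127). None of these had a siRAD21 peak, while H3K4me1 (412 under RAD21 siRNA and 1513 under control siRNA) and JUND (77.1 and 51.5) were found under both. At chr4:73993384-73995117 RAD21 was at 381, and the sole other target, H3K4me1 at 157, had no siRAD21 peak. In the first region the JUND peaks ended at 233178350 under RAD21 siRNA and 233178813 under control siRNA. They thus stopped short of the RAD21 summit at 233181413, which the control HNF4A and NIPBL peaks spanned. The first shows the mark staying, with JUND in another part of the RAD21 peak, and the second shows nothing left of the 11 targets.

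Other sites without RAD21 kept most of their targets. At chr11:13117496-13120758, where control RAD21 was at 299, HNF4A was found at 372 under RAD21 siRNA and 507 under control siRNA. NIPBL (87.2 and 295), JUND (99.1 and 184), MYC (62.3 and 226) and H3K4me1 (1880 and 3100) were also found under both, and REST under control siRNA (92.2). At chr5:73111208-73113120 HNF4A and H3K4me1 were the targets present, with HNF4A at 95.3 under RAD21 siRNA and 656 under control siRNA and H3K4me1 at 509 and 1439. At chr1:227265916-227268142 6 of the 8 targets were found under both siRNAs, among them KLF5 at 149 under RAD21 siRNA and 164 under control siRNA, and SMC3 had a siRAD21 peak at 65.8 without RAD21.

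Losses and gains also stood side by side. At chr9:109394748-109396343 NIPBL (209), HNF4A (62.7), JUND (111), KLF5 (72.5) and MYC (118) had control peaks, and H3K4me1 alone was left, at 140 under RAD21 siRNA and 1038 under control siRNA. At chr15:51151149-51152566 a REST peak of 2007 under RAD21 siRNA and 3100 under control siRNA stayed, while H3K4me1, NIPBL, HNF4A, JUND and MYC had control peaks alone. The value 3100 recurs among the named peaks. At chr2:62373481-62375067, one of the sites with most targets under RAD21 siRNA, 7 of the 8 were found under RAD21 siRNA and 5 under control siRNA, with JUND (128) and REST (64.6) under RAD21 siRNA alone. At chr3:57938286-57939904, among the sites with most control targets, 7 had control peaks, and H3K4me1 alone was found under RAD21 siRNA, at 65.3 against 1342 under control siRNA.

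The strongest sites with none of the 8 targets under either siRNA were picked by their control RAD21 p, so their strength is given as a description. At chr11:101238097-101239041 control RAD21 was at 376 with a fold enrichment of 28.4, the highest fold of all 3158 sites, and SMC3 was at 258. At chr17:3757147-3758306 RAD21 was at 352 and SMC3 at 357. Neither region had a peak of any target under RAD21 siRNA. At chr1:37275789-37277239 RAD21 was found at 74.0 under RAD21 siRNA and 348 under control siRNA, and SMC3 was found at 354 under control siRNA alone.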

How the data were processed

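ChIP-seq peak lists of 22 libraries, 11 targets under each siRNA with 1 library each, were used. 6 IgG libraries were not analysed here. Per the submitters' processing notes, the authors used CASAVA 1.4, BWA and MACS 1.4 with the hg18 build. The file headers name MACS 1.4.0rc2, a p cutoff of 1e-05, 1 kept tag per position and, as background for every library, IgG of the same siRNA and antibody host (goat for CTCF and RFX2, rabbit otherwise). Goat IgG held 3293704 tags under RAD21 siRNA and 3914714 under control siRNA, and rabbit IgG 4101535 and 8916252. IgG depth thus moved with the siRNA as well, which bears on p, fold and FDR.

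Per the file headers, each deposited peak has a count of tags, a score of −10 × log10 p, a fold enrichment (a linear ratio over local background) and an FDR in percent. Rows hold 10 columns although 9 are named. The column without a name was taken as the FDR, since in all 22 lists as many of its values lie under 5 as the labels give peaks at that limit. These are the authors' values and served to describe, rank or stratify peaks within a list.

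From the lists, overlap by at least 1 bp was computed with Python 3.11.15, numpy 2.4.6 and pandas 2.3.3. Found again means that the same target had a siRAD21 peak overlapping the region or peak. Shares have 95% Clopper-Pearson intervals (scipy 1.17.1). Differences at like strength are Mantel-Haenszel risk differences over 5 strata of −10 × log10 p of the whole control list of RAD21, or of the target where its own peaks were compared. Regions and peaks are not replicates, and the intervals cover counting error only. The procedure was tested on simulated data. The sites, target lists and regions were chosen with earlier results of these data known. Regions came from a rule (the strongest sites by RAD21 p with RAD21 found again or not, with each target found under both siRNAs or lost, with the most targets, and with none of the 8), and a selection of them is printed. Alternatives were an FDR under 5% (control NIPBL and JUND, with no such peak, kept all peaks), −10 × log10 p of at least 100, summits within 250 bp, overlap of at least 50% of either peak, no CTCF within 1000 bp, SMC3 not required, equal numbers of strongest peaks, other strata, and, chosen after the data were seen, CTCF of the control library alone. Setting target peaks at the sites against those away from RAD21 was also added after the data were seen. Figures were drawn with matplotlib 3.10.9.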

Additional observations from a re-analysis of the deposited data

How the results depend on the processing

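The differences at like strength between the sites and CTCF-cohesin sites (RAD21 found again, control H3K4me1, control NIPBL, at least 1 control factor) kept their sign and side of 0 in every alternative run, but not their size. RAD21 found again lay between −50.2 (without strata) and −10.8 (−10 × log10 p of at least 100), control H3K4me1 between 10.8 (summits within 250 bp) and 49.9 (overlap of at least 50%), control NIPBL between 25.2 (−10 × log10 p of at least 100) and 43.4 (no CTCF within 1000 bp), and a factor between 27.4 and 48.0. The values below are those of the shares and site numbers that moved beyond their interval or by over 1.5 times. The FDR limit could not be applied to the control NIPBL and JUND lists, which held no peak under 5% and were left whole. The shares are given in the order RAD21 found again, SMC3 under RAD21 siRNA, control H3K4me1, control NIPBL and at least 1 control factor at the sites, then H3K4me1 and a factor found again where RAD21 was not. At an FDR under 5% in the other lists they were 2.05%, 0.154%, 55.8%, 41.5%, 46.3%, 93.1% and 20%. With −10 × log10 p of at least 100 (1255 sites) they were 2.95%, 0.637%, 53.9%, 26.9%, 34.3%, 85.4% and 23.9%. With summits within 250 bp RAD21 was found again at 8.32%, and H3K4me1, NIPBL and a factor stood at 15.7%, 35.0% and 47.3% in control and 50.2% (H3K4me1) and 29.8% (factor) again. Without the need for SMC3 (5645 sites) the first 6 were 5.39%, 2.18%, 66.8%, 38.4%, 52.5% and 89.0%. With equal numbers of strongest peaks the first 2 were 19.4% and 7.93%, on 227 sites. With CTCF of the control library alone, chosen after the data were seen, the first 5 were 12.6%, 5.82%, 67.9%, 43.6% and 57.5%, on 3691 sites.

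Of the differences between target peaks at the sites and away from RAD21, H3K4me1 turned to −0.157 with −10 × log10 p of at least 100 and −0.165 with equal lists, JUND to −2.08 and −2.68 in the same settings and to −0.0537 where the siRAD21 list alone was held to an FDR under 5%, and HNF4A to 0.0210 without strata. The cause was not tested. No paired analysis was possible because there was 1 library per target and siRNA and no result came from a test. Depth limits the shares under RAD21 siRNA for the 9 of 11 targets whose siRAD21 libraries were smaller than their controls. For JUND and MYC the siRAD21 library held 2.02 and 1.02 times the control tags. The IgG background was shallower under RAD21 siRNA for every target.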

Other observations

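The sites were spread over the chromosomes. They made up 7.35% of the control RAD21 peaks with SMC3 on chromosome 11 and 12.5% on chromosome 21, the lowest and highest shares among chromosomes 1 to 22 and X, and 2 sites lay elsewhere. The nearest other site was a median of 116294 bp away, against 25219 bp for the 28404 CTCF-cohesin sites among themselves. Another lay within 10000 bp of 304 sites (9.63%) and of 24.6% of CTCF-cohesin sites. The sets differ in size, with 3158 sites against 28404, so these distances are not like for like.

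The 533 cohesin regions with a CTCF peak under RAD21 siRNA alone differed from the 3158 sites in several readouts. H3K4me1 was found at 60.0% of them under RAD21 siRNA and 43.5% under control siRNA, NIPBL at 11.4% and 16.1%, JUND at 19.9% and 6.19%, HNF4A at 11.3% and 9.94%, KLF5 at 2.63% and 16.5%, and MYC at 13.3% and 28.0%. SMC3 had a siRAD21 peak at 20.5% (17.1 to 24.1), against 3.36% of the sites without CTCF. These shares were not compared at like strength. The 533 regions were chosen for a siRAD21 peak that the sites by their rule lack, so the siRAD21 shares are not independent of the choice.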
